A study of Mus musculus with 4 samples.

Results

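The heterochromatin proteins and H3K9 enzymes examined here are 10 genes of the 23337 symbols counted: the HP1 genes Cbx1, Cbx3 and Cbx5, the H3K9 methyltransferase genes Suv39h1, Suv39h2, Setdb1, Ehmt1 and Ehmt2, the co-repressor gene Trim28 and the demethylase gene Kdm1a. They were chosen by name for the known function of their proteins, with no rule based on measured values. Earlier results of these data were known when the choice was made. All 10 passed the filter on low counts (more than 1 CPM, the count scaled to a common library total, in at least 2 of 4 libraries) and were tested among 15438 genes.

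Methylation of lysine 9 of histone H3 marks silenced chromatin. The Suv39h enzymes and Setdb1 write its trimethylated form, the Ehmt enzymes (G9a and GLP) write mainly the dimethylated form, and HP1 proteins bind the methylated residue and compact the chromatin around it. Trim28 (KAP1) is brought to DNA by KRAB zinc finger proteins and recruits Setdb1 and HP1, and Kdm1a (LSD1) removes mono- and dimethyl groups from histone H3. In olfactory sensory neurons the odorant receptor genes are packed in heterochromatin carrying H3K9 methylation, one receptor allele escapes this silencing in each cell, and Kdm1a acts at the moment of that choice.

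Tomato-positive cells were sorted from the olfactory epithelium of 4 mice after it had regenerated, and their RNA was sequenced, 1 mouse per library, to ask which genes change when lamin B1, a protein of the nuclear lamina, is lost. There were 2 mutant mice (K5Cre;Lmnb1 fl/fl, giving Lmnb1-/- cells) and 2 control mice (K5Cre;Lmnb1 fl/+, giving Lmnb1+/- cells), all on a mixed background with the R26 Ai9 Tomato reporter, so that Cre and 1 deleted Lmnb1 allele are shared by both genotypes. Cre was driven by the keratin 5 promoter in horizontal basal cells, the reserve stem cells of the epithelium, and recombination was mosaic. All mice had received 2 injections of 50 mg/kg methimazole, which destroys the epithelium, and had recovered for 4 weeks. Tomato then marked the basal cells and all their progeny, including neurons and supporting cells. Control 1 and mutant 1 formed experimental group 1 and control 2 and mutant 2 formed experimental group 2. Mice of an experimental group were littermates matched for age and sex and were handled and sequenced together. The experimental groups differed in parents, age, sex and treatment, and the paper also names batch among the differences between them. None of these can be told apart in a difference between experimental groups.

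Reads assigned to genes numbered between 14833396 (mutant 2) and 23704638 (control 1). Mutant 1 stood apart, since 39.4% of its uniquely aligned reads lay outside genes, compared with 22.1% to 24.9% in the other libraries, and 1603 genes had no count in it, compared with 5173 to 6053. At the density of mutant 1 reads over 3753 genes with no count in the other libraries, background would make up 0.163% (Trim28) to 14.2% (Suv39h2) of the counts of the 10 genes there. The targeted gene, Lmnb1, stood at 20.6 CPM in control 1 and 14.1 in mutant 1, and at 18.8 in control 2 and 10.1 in mutant 2. Its genotype log2 difference of -0.72 (SE 0.31) did not pass the edgeR likelihood-ratio test (adjusted p = 0.195), although both mutants lay below both controls. Per the paper, the deleted allele lacks exon 2, so RNA of its other exons, if made, still entered these counts. The paper reports that most Tomato-positive cells of mutants lacked lamin B1 staining, and that PCR of sorted cells showed Lmnb1 transcript depletion. The part of the other exons in the Lmnb1 value was not tested. Markers of the labelled cell types were present in every library, and their makeup differed between genotypes. All 12 mature olfactory neuron markers passed the test as lower in mutants (summed 8069.6 to 18014 CPM in controls and 2378 to 9917.1 CPM in mutants). Of 15 cycling cell markers, 8 passed as higher (342.31 to 357.73 CPM in controls and 571.71 to 612.06 CPM in mutants). Of the other marker lists, 1 of 10 immature neuron markers passed as lower. As higher, 2 of 7 neurogenic progenitor and 2 of 7 horizontal basal cell markers passed. For sustentacular cells 0 of 7 and for leukocytes 0 of 11 markers passed. By value alone, 15 of 15 cycling, 7 of 7 horizontal basal, 6 of 7 progenitor, 4 of 7 sustentacular, 2 of 10 immature neuron and 3 of 11 leukocyte markers were higher. The median leukocyte log2 ratio of mutant to control was -1.61 within experimental group 1 and 0.97 within experimental group 2. In sorted populations of this kind, fewer cells of a type and less RNA per cell cannot be told apart, and the part of these markers in the values below was not tested.

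The promoters of the HP1 genes are printed first, because Cbx3 and Cbx5 were the members that passed the test between experimental groups and Cbx1 is their closest relative. Each window runs from 250 bases before to 50 bases after the first RefSeq start (GRCm38.p6, the mm10 assembly), 5′ to 3′ on the strand of the gene. Capitals mark the GC box letters GGGCGG or CCGCCC, the CCAAT box letters CCAAT or ATTGG and the E2F core letters TTTGGCGC or GCGCCAAA, and no match overlaps another.
Cbx1, chr11:96788885-96789184, plus strand: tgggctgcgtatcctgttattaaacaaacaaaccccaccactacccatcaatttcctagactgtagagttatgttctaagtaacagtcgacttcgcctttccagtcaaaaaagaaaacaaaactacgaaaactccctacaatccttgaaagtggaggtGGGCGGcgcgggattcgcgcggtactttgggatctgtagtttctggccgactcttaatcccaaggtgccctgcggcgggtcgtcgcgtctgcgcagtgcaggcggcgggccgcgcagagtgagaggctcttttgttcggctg
Cbx3, chr6:51470366-51470665, plus strand: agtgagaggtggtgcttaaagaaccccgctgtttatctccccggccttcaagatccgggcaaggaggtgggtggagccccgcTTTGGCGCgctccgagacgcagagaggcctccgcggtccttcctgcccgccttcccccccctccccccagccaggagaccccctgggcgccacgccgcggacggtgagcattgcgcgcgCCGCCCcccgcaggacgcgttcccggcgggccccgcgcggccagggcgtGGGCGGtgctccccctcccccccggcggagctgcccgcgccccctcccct
Cbx5, chr15:103239803-103240102, minus strand: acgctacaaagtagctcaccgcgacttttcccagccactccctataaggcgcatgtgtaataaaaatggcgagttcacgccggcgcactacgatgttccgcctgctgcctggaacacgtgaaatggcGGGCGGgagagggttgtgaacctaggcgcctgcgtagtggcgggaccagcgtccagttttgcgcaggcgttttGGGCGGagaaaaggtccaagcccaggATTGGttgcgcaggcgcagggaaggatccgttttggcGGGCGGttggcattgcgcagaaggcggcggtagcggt

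The Cbx1 window held 22 CpG dinucleotides and 1 GC box, the Cbx3 window 34 CpG dinucleotides, 2 GC boxes and 1 E2F core, and the Cbx5 window 29 CpG dinucleotides, 3 GC boxes and 1 CCAAT box. The median over 32851 mouse promoter windows of the same length was 7 CpG dinucleotides. The 10 genes had 14 annotated windows in all, with 8 to 40 CpG dinucleotides. GC box letters were in 12 of the 14, compared with 35.66% of all windows, and CCAAT box letters were in 4 of the 14, compared with 37.41%. The letters TATAAA or TTTATA were in 0 of the 14 and in 13.62% of all windows. The E2F core of Cbx3 was the only one among the 14, and 0.51% of all windows held it. Other letters searched on both strands were the ETS core CCGGAAG (1 of the 14, 8.86% of all windows), the YY1 core AAGATGGC (2 of the 14, 2.75%), the NRF1 core GCATGCGC (0 of the 14, 2.71%) and a second E2F core, TTTCCCGC (0 of the 14, 1.07%), and none of these was in the printed windows. Windows of one gene can share sequence, and a match of letters describes the window only.

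The HP1 genes encode HP1β (Cbx1), HP1γ (Cbx3) and HP1α (Cbx5). Cbx1 lies at chr11:96789127-96808640 (mm10, plus strand), Cbx3 at chr6:51470360-51483704 (plus strand) and Cbx5 at chr15:103191544-103239816 (minus strand). None of them passed the test for genotype. Across the genome, 5.58% of genes passed it, 1.28% higher and 4.30% lower in mutants, and 0 of the 10 genes examined were among them by edgeR's likelihood-ratio test, its quasi-likelihood test or DESeq2.

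Cbx5 was measured at 63.6 CPM in control 1 and 89.2 in mutant 1, and at 130 in control 2 and 167 in mutant 2. Each mutant was above the control of its own experimental group, but mutant 1 was below control 2, so the genotypes overlapped. The log2 ratio of mutant to control was 0.49 within experimental group 1 and 0.36 within experimental group 2. The fitted log2 fold change was 0.43 (SE 0.18, 95% interval 0.08 to 0.77), a fold of 1.34 with an interval of 1.06 to 1.71. Its unadjusted p of 0.0150 was the only one under 0.05 among the 10 genes, compared with 15.9% of all genes, and it did not pass after adjustment (edgeR adjusted p = 0.157, and 0.0778 to 1.00 over the alternatives). Without the experimental group in the model, the log2 fold change was -0.01 when control 1 was left out and -0.08 when mutant 2 was left out. It was 1.05 and 0.78 when control 2 and mutant 1 were left out. In each of these fits 1 genotype was represented by 1 experimental group only. Differences between experimental groups therefore entered the genotype value and cannot be told apart from it.

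Cbx3 was measured at 114 CPM in control 1 and 122 in mutant 1, and at 183 in control 2 and 203 in mutant 2. Its mutants and controls of the same experimental group were close, and its fitted genotype log2 fold change was 0.12 (SE 0.19, 95% interval -0.25 to 0.50, edgeR adjusted p = 0.859). Cbx1 was measured at 31.7 CPM in control 1 and 39.3 in mutant 1, and at 49.5 in control 2 and 44.1 in mutant 2. Both mutants therefore fell between the controls. The log2 ratio of mutant to control for Cbx1 was 0.31 within experimental group 1 and -0.17 within experimental group 2, and the fitted genotype log2 fold change was 0.07 (SE 0.20, 95% interval -0.32 to 0.46, edgeR adjusted p = 0.936). Summed per kilobase of exon, the HP1 genes gave log2 ratios of mutant to control of 0.23 within experimental group 1 and 0.15 within experimental group 2.

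The HP1 genes were also compared between experimental groups. Cbx5 was 1.95-fold higher in experimental group 2 (log2 difference 0.96, SE 0.18, edgeR adjusted p = 9.84e-07), and Cbx3 was 1.63-fold higher (log2 difference 0.70, SE 0.19, edgeR adjusted p = 0.00162). Both libraries of experimental group 2 lay above both libraries of experimental group 1 for Cbx5 and Cbx3. These were 2 of the 10 genes, compared with 31.6% of all genes. Both passed as higher in experimental group 2, as did 17.7% of all genes, while 14.0% of all genes passed as lower. A share of 2 in 10 is near those of all genes, and no conclusion about the members is drawn from it. Cbx1 had a log2 difference of 0.40 (SE 0.20, edgeR adjusted p = 0.112). With genotype left out of the model and 1 library removed, Cbx3 no longer passed whichever library was removed although its log2 difference was 0.63 to 0.80, and Cbx5 passed without control 2 or mutant 1 but not without control 1 or mutant 2. The log2 differences of Cbx5 were 1.14, 1.21, 0.71 and 0.76 in that order. The number of members called was then 0 to 1.

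Several other quantities differed between the experimental groups. The tally of alignments that were not unique, which were not counted, was 62182762 to 67710764 in experimental group 1 and 6757456 to 10308536 in experimental group 2. A read can enter this tally more than once. Of the 50-base windows of Cbx3 exons, 8.67% occur in another gene, including Cbx3 pseudogenes and the noncoding gene Gm49164, compared with 0.02% for Cbx5 and 0.0% for Cbx1, so the level of Cbx3 is the least certain of the HP1 genes. Summed markers of sustentacular cells, the supporting cells of the epithelium, were 2990.6 to 3423.9 CPM in experimental group 1 and 7707.8 to 9092.1 CPM in experimental group 2. Of these markers, 5 of 7 passed as higher in experimental group 2. Of the mature olfactory neuron markers, 9 of 12 passed as lower in experimental group 2 (summed 9917.1 to 18014 CPM in experimental group 1 and 2378 to 8069.6 CPM in experimental group 2). Of the horizontal basal cell markers, 4 of 7 passed as lower and 2 as higher. The part of these quantities in the differences of Cbx3 and Cbx5 was not tested.

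Cbx3 and Cbx5 each start beside a gene of the heterogeneous nuclear ribonucleoprotein A/B family transcribed the other way, a known arrangement of CpG-rich promoters. Both neighbours were looked up after the values of the HP1 genes had been seen, and were added after their own values were seen. The start of Hnrnpa2b1, a splicing factor, is 722 bases from that of Cbx3, and that of Hnrnpa1 is 545 bases from that of Cbx5. Hnrnpa2b1 was measured at 210 CPM in control 1 and 205 in mutant 1, and at 406 in control 2 and 399 in mutant 2. It differed between experimental groups by a log2 value of 0.96 (SE 0.23, edgeR adjusted p = 0.000255), where 17.7% of all genes passed as higher in experimental group 2. Between genotypes it differed by -0.03 (edgeR adjusted p = 0.985). Like Cbx3, it did not pass between experimental groups once 1 library and the genotype term were left out, with log2 differences of 0.93 to 0.97. Hnrnpa1 was thinly counted, with 37 to 65 counts per library, and it has many near-identical processed copies in the genome, so its level is uncertain. Its log2 difference between experimental groups was 1.02 (SE 0.76, edgeR adjusted p = 0.321).

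The Suv39h genes encode the methyltransferases of pericentromeric heterochromatin. Suv39h1 lies at chrX:8061171-8074760 (minus strand) and Suv39h2 at chr2:3455815-3475031 (minus strand). Suv39h1 was measured at 28.1 CPM in control 1 and 31.4 in mutant 1, and at 23.0 in control 2 and 28.6 in mutant 2. It was the only member with both mutants above both controls, a separation found in either direction in 25.9% of all genes. Its log2 fold change was 0.24 (SE 0.23, 95% interval -0.21 to 0.68, edgeR adjusted p = 0.709). An antisense gene, Gm14820, covers 14.55% of the exon bases of Suv39h1, and reads of the pair cannot be told apart if counting ignored strand, a setting not given in the sources used here.

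Suv39h2 was the least abundant member, at 4.66 CPM in control 1 and 4.88 in mutant 1, and at 5.28 in control 2 and 5.48 in mutant 2. These levels rest on 81 to 113 counts. The fitted log2 value for genotype was 0.06 (SE 0.54, edgeR adjusted p = 0.986). The 95% interval ran from a fold of 0.499 to one of 2.19, so it included a change of 2-fold in either direction. The opposite-strand gene Dclre1c overlaps 8.1% of its exon bases.

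Setdb1, at chr3:95323525-95357202 (minus strand), encodes an H3K9 methyltransferase that acts with Trim28. It was measured at 48.8 CPM in control 1 and 53.8 in mutant 1, and at 75.2 in control 2 and 62.1 in mutant 2. As with Cbx1, the mutants fell between the controls, with log2 ratios of 0.14 within experimental group 1 and -0.27 within experimental group 2. The fitted value was -0.06 (SE 0.18, 95% interval -0.41 to 0.28, edgeR adjusted p = 0.940). Between experimental groups the log2 difference was 0.41 (SE 0.18, edgeR adjusted p = 0.0613). Of its 50-base windows, 10.19% occur in another gene, mostly in the noncoding gene Gm4349.

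Trim28, at chr7:12999114-13031035 (plus strand), was the most abundant member. It was measured at 344 CPM in control 1 and 398 in mutant 1, and at 268 in control 2 and 316 in mutant 2. Each mutant exceeded its own control, with log2 ratios of 0.21 and 0.24, while mutant 2 was below control 1. The fitted log2 fold change was 0.23 (SE 0.23, 95% interval -0.22 to 0.68, edgeR adjusted p = 0.734). Trim28 and Suv39h1 had the lowest values between experimental groups, with log2 differences of -0.35 (SE 0.23, edgeR adjusted p = 0.258) and -0.21 (SE 0.23, edgeR adjusted p = 0.521), against positive values for 7 of the 10 genes.

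The Ehmt genes encode the partners of the H3K9 dimethyltransferase dimer. Ehmt1 lies at chr2:24789928-24919614 (minus strand) and Ehmt2 at chr17:34898469-34914052 (plus strand). Ehmt2 had the narrowest range of all members, at 183 CPM in control 1 and 173 in mutant 1, and at 173 in control 2 and 165 in mutant 2. The log2 fold change was -0.07 for genotype (SE 0.20, 95% interval -0.46 to 0.31, edgeR adjusted p = 0.939) and -0.08 for experimental group (SE 0.20, edgeR adjusted p = 0.806). Ehmt1 was measured at 66.2 CPM in control 1 and 68.2 in mutant 1, and at 79.7 in control 2 and 86.3 in mutant 2. Its genotype log2 fold change of 0.08 (SE 0.16, 95% interval -0.23 to 0.39, edgeR adjusted p = 0.901) had the smallest error of the 10 genes.

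Kdm1a, at chr4:136550540-136602723 (minus strand), was measured at 130 CPM in control 1 and 137 in mutant 1, and at 155 in control 2 and 178 in mutant 2. The mutants were above their own controls by 0.07 and 0.20 on the log2 scale, and the genotypes overlapped. The fitted log2 fold change was 0.14 (SE 0.19, 95% interval -0.24 to 0.51, edgeR adjusted p = 0.835).

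**Figure D1:**
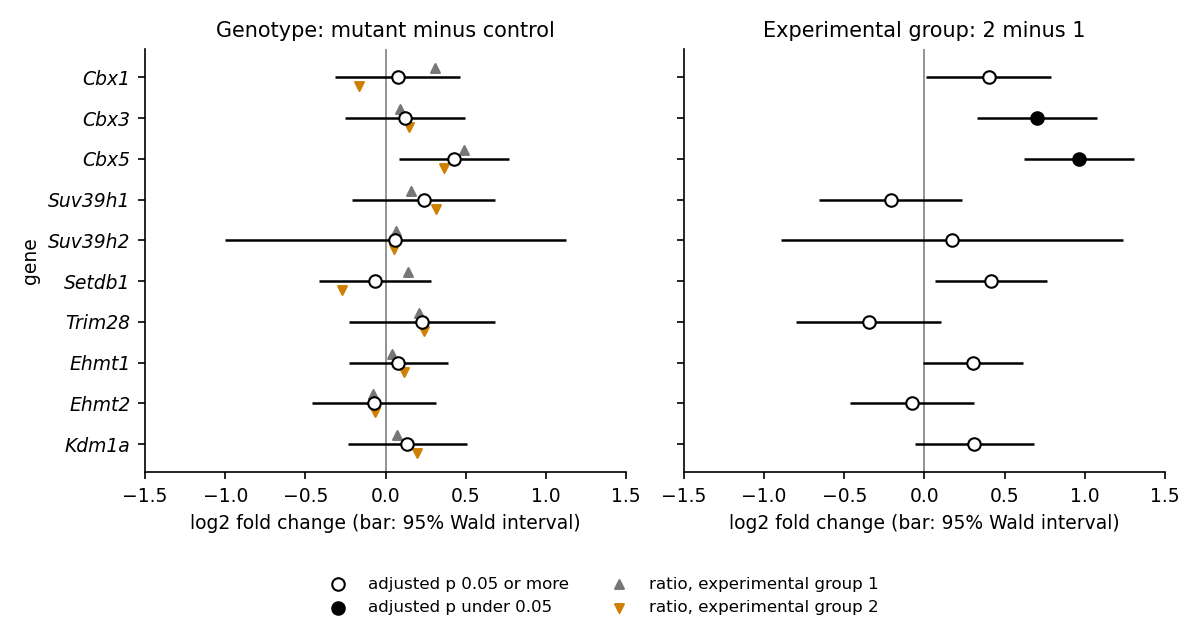
Log2 fold change of each gene (x axis) for genotype (left, mutant minus control) and experimental group (right, group 2 minus group 1), with bars for 95% Wald intervals and triangles for the ratio within each experimental group. No gene passes for genotype, where Cbx5 lies furthest from 0 at 0.43, and Cbx3 (0.70) and Cbx5 (0.96) pass for experimental group.

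Apart from Suv39h2, the 95% intervals of the genotype effect lay between folds of 0.729 and 1.71. The median absolute log2 fold change of the 10 genes was 0.10, compared with 0.26 over all tested genes, and their 90th percentile was 0.26, compared with 0.97. The members were also more abundant than most genes, with a median percentile of 83.75 by mean CPM, and their median SE was 0.19, compared with 0.26. The ratio of mutant to control had the same sign in both experimental groups for 8 of the 10 genes, all but Cbx1 and Setdb1, compared with 62.7% of all genes.

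Levels were compared between genes per kilobase of exon. Trim28 was highest, with a mean of 79.7 CPM per kilobase, and its lowest library lay above the highest of the next gene. Ehmt2 (31.6), Kdm1a (28.9) and Cbx3 (25.9) followed, and their ranges overlapped from each gene to the next. Cbx5 (12.5), Cbx1 (9.63), Ehmt1 (9.25) and Setdb1 (8.75) formed a lower stretch of the order in which neighbours again overlapped. Suv39h1 (5.27) and Suv39h2 (1.15) stood below them without overlap. When the longest annotated transcript replaced the union of exons, Trim28 stayed first and Suv39h2 last, while Cbx3 moved from rank 4 to rank 2 and Ehmt2 from rank 2 to rank 4.

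**Figure D2:**
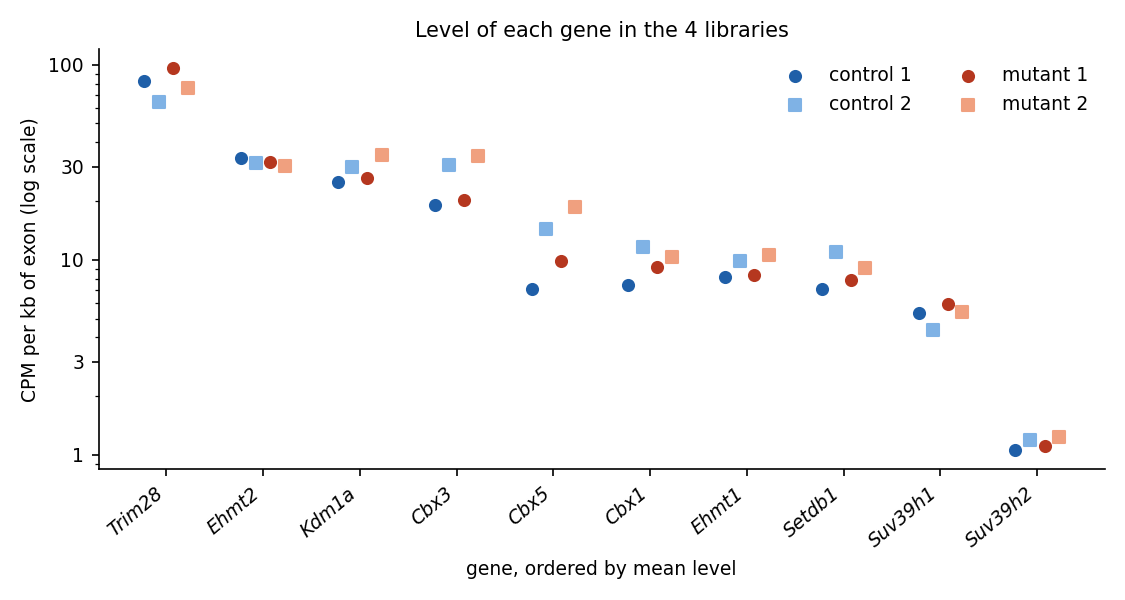
CPM per kilobase of exon (log axis) of each gene in the 4 libraries, ordered by mean level, with blue for controls, red for mutants, circles for experimental group 1 and squares for experimental group 2. For Cbx5 and Cbx3 the squares lie above the circles, and for Suv39h1 the red symbols lie above the blue.

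Within families, one paralog carried most of the RNA. Cbx3 took 51.5% to 56.9% of HP1 RNA per kilobase across the libraries. Cbx5 took 21.0% in control 1 and 25.1% in mutant 1, and 25.5% in control 2 and 29.6% in mutant 2, and was above the control of the same experimental group in each mutant. Cbx1 took 16.4% to 23.3%. Suv39h1 took 78.5% to 84.3% of the Suv39h pair and Ehmt2 73.9% to 80.4% of the Ehmt pair, with controls and mutants overlapping in each. Within experimental groups, mutants differed from controls in the same direction for both pairs, from 83.5% to 84.3% and from 78.5% to 81.4% for Suv39h1, and from 80.4% to 79.0% and from 76.2% to 73.9% for Ehmt2. No test was made on these shares. These shares depend on length, and with the longest transcript the mean share in mutants was 62.9% for Cbx3 and 16.3% for Cbx5, which placed Cbx5 below Cbx1.

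**Figure D3:**
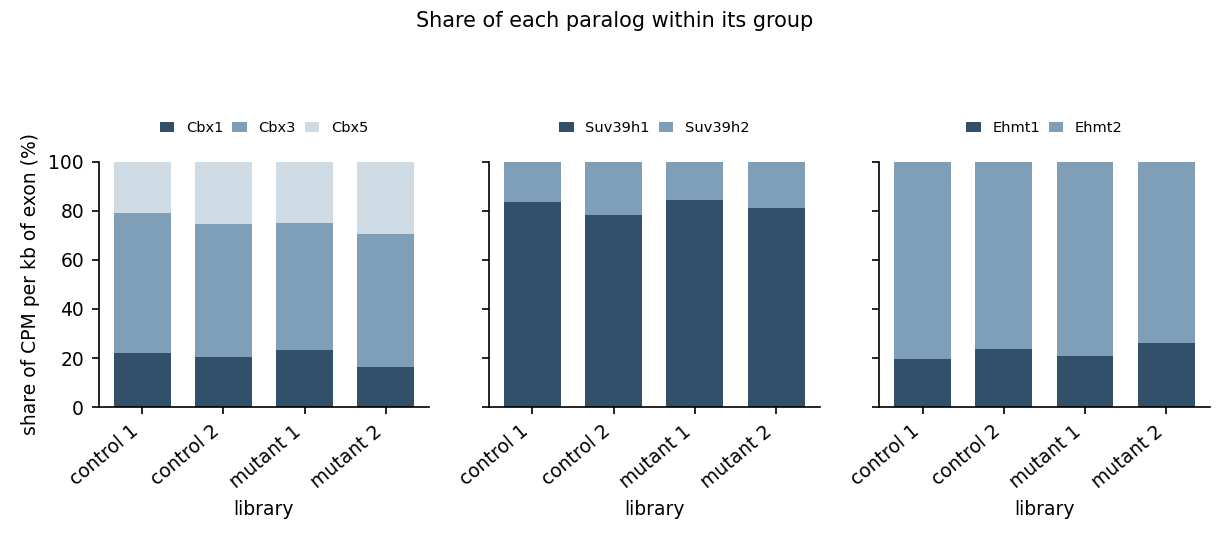
Share (y axis, percent) of CPM per kilobase of exon taken by each paralog within the HP1, Suv39h and Ehmt groups, 1 stacked bar per library. Cbx3, Suv39h1 and Ehmt2 hold more than the other genes of their group in all 4 libraries.

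The wider pathway was described through 5 lists of 69 genes in all, of which 63 were tested. For genotype, 1 passed as higher and 0 as lower in mutants, compared with 1.28% and 4.30% of all genes. The median log2 fold change was 0.08, compared with -0.01 over all genes. Among 12 subunits and partners of HUSH and the H3K9 methyltransferases (median 0.03), 11 H3K9 demethylases (median -0.03), 12 CoREST complex genes, whose products work with Kdm1a (median 0.12), and 9 KRAB zinc finger genes (median 0.18), 0 passed in either direction. Among 19 HP1 partners and heterochromatin maintenance genes (median 0.22), 1 passed, higher in mutants.

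The gene of that last list that passed was Uhrf1, which binds H3K9 methylation and hemimethylated DNA during replication. It was measured at 28.7 CPM in control 1 and 54.8 in mutant 1, and at 25.4 in control 2 and 34.5 in mutant 2, so both mutants lay above both controls. Its log2 fold change was 0.70 (SE 0.21, edgeR adjusted p = 0.0223). It did not pass by edgeR's quasi-likelihood test or DESeq2, or without the experimental group in the model, and passed under the other alternatives with all 4 libraries, with log2 fold changes of 0.70 to 0.75 over all of these. Without the experimental group and 1 library it did not pass, at 0.35 without mutant 1 to 1.06 without mutant 2. Cycling cell markers, given above, were also higher in mutants, and their part in the Uhrf1 value was not tested.

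For experimental group, 27 of the 63 pathway genes passed as higher and 2 as lower in experimental group 2, compared with 17.7% and 14.0% of all genes. Those that passed as higher numbered 8 of 12 in the HUSH and partner list, 4 of 11 H3K9 demethylases and 4 of 12 CoREST genes. They also numbered 9 of 19 HP1 partners and heterochromatin maintenance genes and 2 of 9 KRAB zinc finger genes.

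**Figure D4:**
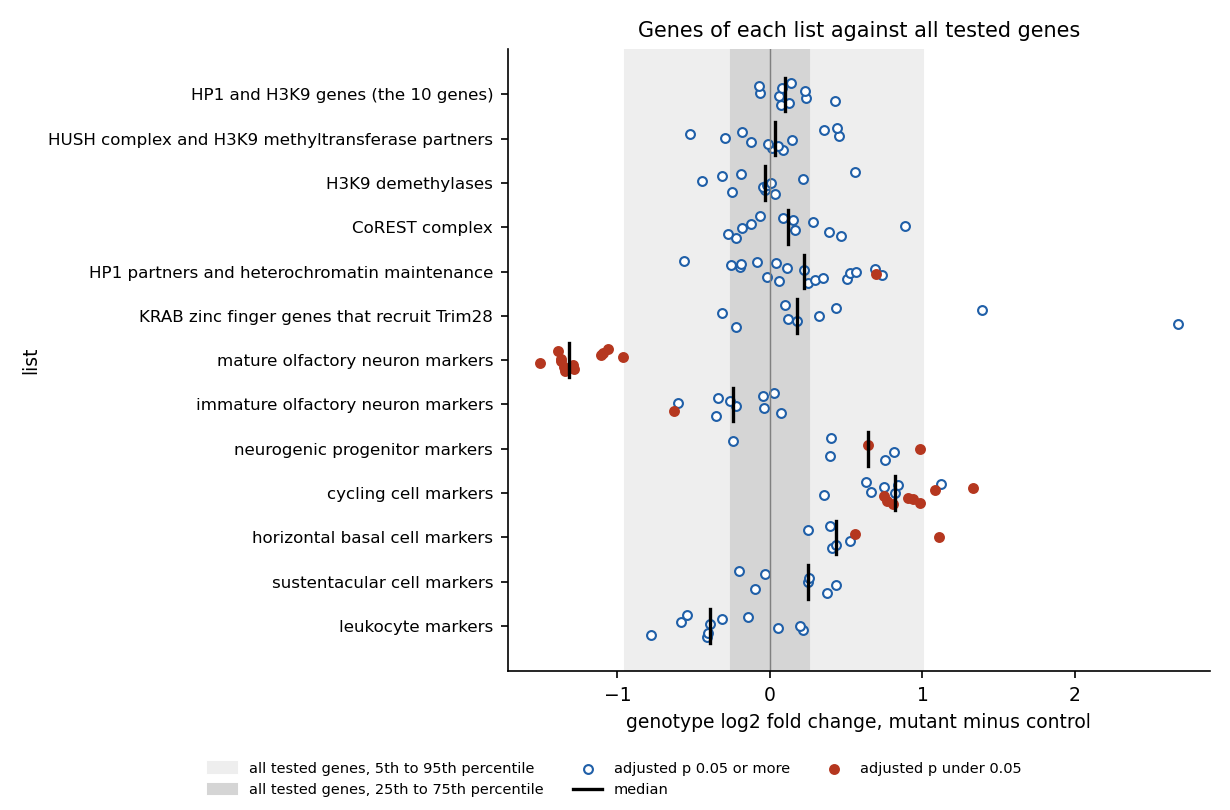
Genotype log2 fold change (x axis, mutant minus control) of each tested gene in the lists, with black ticks for list medians, filled points for adjusted p under 0.05 and grey bands for the spread of all tested genes. The 10 HP1 and H3K9 genes lie near 0 with a median of 0.10, while mature olfactory neuron markers have a median of -1.32 and cycling cell markers one of 0.82.

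The profiles of the 10 genes over the 4 libraries differed, with Trim28 and Suv39h1 lower and Cbx5 and Cbx3 higher in experimental group 2 by value. Centred on the mean of each gene, the members averaged -0.21 in control 1 and -0.06 in mutant 1, and 0.09 in control 2 and 0.18 in mutant 2, on the log2 scale. Among all other tested genes, those closest to this mean profile were Slc37a3 (Euclidean distance 0.0278 over 4 libraries), Ccdc117 (0.0379) and Psma3 (0.0382). None of these passed for genotype or experimental group. The members themselves lay farther from their mean profile, at 0.087 (Ehmt1) to 0.765 (Cbx5), so closeness to it is not closeness to each member.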

How the data were processed

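Raw read counts per gene symbol were deposited by the authors for each library. Per the study's methods, ribosomal RNA was depleted, 50-base single-end reads were cleared of ribosomal matches with Bowtie2, filtered on quality, aligned with TopHat to mm10 and counted with HTSeq (intersection-nonempty), which sets aside reads with several alignments. The submitters' processing notes give Bowtie2 2.0.6 and TopHat2 2.0.7. The 5 tally lines of each file were left out, except in an alternative fit that kept them.

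Counts were analysed with edgeR 4.0.16 in R 4.3.3. Genes with more than 1 CPM in at least 2 libraries were kept, TMM factors applied, common, trended and tagwise dispersions estimated, and genotype and experimental group fitted together. Likelihood-ratio tests were run on each coefficient with Benjamini-Hochberg adjustment over 15438 genes, with a threshold of 0.05. SE are Wald errors from the model weights. CPM use TMM-scaled library totals. Ratios within an experimental group use log2 CPM with a prior count of 2 and carry no test. The quasi-likelihood test and DESeq2 1.42.0 were alternatives.

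Same-numbered libraries come from the same litter and preparation, and their deviations from the genotype means correlated across genes (r = 0.52). With 2 libraries per genotype an exact permutation test cannot go below p = 0.333. At these totals 3 counts correspond to 0.127 to 0.202 CPM. This covers counting error only, since reads carry no molecular identifiers. Coordinates and exon lengths are from GENCODE annotation of mm10 (20953 symbols matched by current name and 1946 by an older one), and promoter windows from RefSeq.

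The members and gene lists were chosen with earlier results of these data known. Genes named with values are the members, Lmnb1, the pathway list genes past the threshold for genotype and the 3 genes nearest to the mean profile of the members. Marker genes were summarised by list. Hnrnpa2b1 and Hnrnpa1 were added after their values were seen, and genes that overlap or share sequence with a member are named without values. A further gene list is not reported here.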

Additional observations from a re-analysis of the deposited data

Results flagged for a closer look

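Cbx1 and Setdb1 had ratios of opposite sign in the experimental groups. The log2 ratio of mutant to control was 0.31 within experimental group 1 and -0.17 within experimental group 2 for Cbx1, and 0.14 and -0.27 for Setdb1. Each ratio rests on 1 mutant and 1 control, and the difference between experimental groups was not tested.

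Reads outside annotated genes accounted for 39.4% of unique alignments of mutant 1, above the 23.8% and 24.9% of the controls. They entered no fit of the report except an alternative that kept the tally lines.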

How the results depend on the processing

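For genotype, 0 of the 10 genes passed under any alternative run, while the number of all genes past the threshold was 861 with the replicate block and 6 with no replicate block. Leaving out each library in turn was possible only without the block, since 3 libraries leave no residual degrees of freedom with it, and a lone library of a genotype is then assumed to vary like the others. The count of all genes was then 4 (without mutant 1) to 34 (without control 1). Genotype log2 fold changes that changed sign in these fits ranged from -0.24 to 0.44 for Cbx1, -0.25 to 0.55 for Cbx3, -0.084 to 1.05 for Cbx5, -0.018 to 0.20 for Suv39h2, -0.36 to 0.29 for Setdb1, -0.062 to 0.27 for Ehmt1 and -0.024 to 0.32 for Kdm1a. Signs also changed for Cbx1 in experimental group 2 alone (-0.17), Setdb1 in experimental group 1 alone (0.14) and Suv39h2 after background subtraction from mutant 1 (-0.0050). With the block and 1 library left out, differences between experimental groups entered the genotype value and cannot be told apart from it. The causes of the other sign changes were not tested. Without a filter on low counts the median log2 fold change of all genes was 0.14, compared with -0.01. Between experimental groups, 2 members passed under the alternatives with both terms, except for 3 with DESeq2 (Trim28 added, -0.36) and 3 with libraries thinned to equal totals (Setdb1 added, 0.45). Leaving out each library with the genotype term also left out was chosen after seeing the data, and gave 0 to 1 members and 458 to 2318 of all genes, compared with 4885. Fewer libraries entered these fits. Suv39h2 had the fewest counts of the members, at most 113, and the largest SE. The part of depth in that SE was not tested.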
